A study of Mus musculus with 75 samples.

Results

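The 8 genes described here belong to the prostaglandin pathway, and they are 8 of the 24984 genes counted in RNA-seq libraries of mouse skin fibroblasts. They are Pla2g4a, Ptgs1, Ptgs2, Ptges, Ptgis, Hpgd, Ptger2 and Ptger4. The members were named for their places in the pathway, and the set was chosen by the level of Ptgs2 in these same libraries, which was seen to be high at the last passage and with an Atf3 hairpin. The Ptgs2 values over passages and in the Atf3 experiment are therefore given as a description, with no test. The other members, and Ptgs2 in the E2f4 and Tead1 experiments and in the ATAC-seq data, were tested. The members and the lists of further genes were chosen with earlier results of these data known. Their p-values and counts are therefore not those of lists drawn up blind.

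The study followed fibroblasts on their way into replicative senescence (RS), the lasting arrest that cultured cells reach after repeated division. The cells were primary skin fibroblasts of female C57BL/6 mice aged 2 months, split 1:3 at each passage, with 4 RNA-seq libraries at each of P1, P3, P5 and P7 and with 4, 3, 3 and 3 ATAC-seq samples at the same passages. In 4 further RNA-seq experiments, lentivirus was used to overexpress E2f4 under doxycycline (E2f4 OE, 2 libraries, against 2 of a vector control) or to knock down E2f4 (sh1), Tead1 (sh3 and sh4) or Atf3 (sh5 and sh6), with 3 libraries per hairpin and 3 of a non-targeting hairpin (NT) in each knockdown experiment. All these cells carried a lentivirus, they were selected or induced with a drug, and both newborn and adult fibroblasts were used for such experiments, without a label saying which, so levels are compared only within an experiment. E2f4 was represented by 1 hairpin alone. The labels do not say whether replicates came from separate mice or cultures, so the p-values measure the spread between these libraries, which may be technical.

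Total counts ran from 9147324 to 27552949 per library. Levels are counts scaled to library size (CPM) after TMM normalization, and log2 fold changes, their standard errors (SE) and Benjamini-Hochberg adjusted p-values are from edgeR over all genes tested. Below, a gene "changed" (rose or fell) with an adjusted p under 0.05, and was "called" when it also changed over 2-fold. The targeted genes moved as labelled: E2f4 stood at 1149 CPM with OE against 41.5 in the control and at 21.3 with sh1 against 60.03 with NT, Tead1 at 279 (sh3) and 316 (sh4) against 541, and Atf3, which was low throughout, at 1.34 (sh5) and 1.72 (sh6) against 2.98, where the sh6 difference did not pass the test (edgeR adjusted p = 0.114). A pair of libraries stood apart from their groups. NT replicate 1 of the E2f4 knockdown had 18352 genes with a read, against 14984 and 15510 in the other 2, and in Atf3 sh5 replicate 3 reads outside genes were 15.1% of all reads listed, against 11.1% and 10.7%. Fibroblast markers, 10 of 10 detected in each group, were abundant everywhere (17060 to 41623 CPM summed). The P1 libraries also held RNA of other cells: 12 macrophage markers summed to 344 to 533 CPM at P1 and 35.7 to 56.1 at P7, 6 endothelial markers to 140 to 153 and 8.85 to 12.0, and 5 adipocyte markers to 108 to 136 and 7.50 to 14.7, the last with Adipoq and Plin1 at 0 at P7. Likewise 8 keratinocyte markers summed to 63.4 to 387 CPM at P1 and 9.45 to 13.2 at P7, and 6 skeletal muscle markers to 160 to 257 and 39.04 to 109.95. In bulk libraries, fewer cells of a type and less RNA per cell cannot be told apart.

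Prostaglandins are lipid signals made on demand. Cytosolic phospholipase A2 frees arachidonic acid from membranes, a cyclooxygenase turns it into prostaglandin H2, a terminal synthase makes the final product, and 15-hydroxyprostaglandin dehydrogenase in the cytosol inactivates it. Skin fibroblasts make prostaglandin E2, which acts on neighbouring cells and on the fibroblasts themselves through G-protein-coupled receptors, and its inducible cyclooxygenase is a classic inflammatory gene.

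On a per-length scale (CPM per kb of exon), which allows genes to be set side by side, the constitutive cyclooxygenase Ptgs1 was the highest member at P1, at 24.8 CPM per kb. It was followed by Ptges at 12.5, Pla2g4a at 12.0 and Ptgis at 11.8, then Ptger4 at 7.23, Ptgs2 at 4.43, Hpgd at 4.40 and Ptger2 at 0.0444. At P7 Ptgs2 came first with 57.4 CPM per kb, ahead of Ptgs1 at 48.4, Pla2g4a at 23.4, Ptges at 17.0 and Ptgis at 16.4. Ptger4 followed at 8.58, Hpgd at 0.861 and Ptger2 at 0.125. On this scale the libraries of Ptges, Pla2g4a and Ptgis overlapped at P1, as did those of Ptgs2 and Hpgd. At P7 those of Ptgs2 and Ptgs1 overlapped, though Ptgs2 lay above Ptgs1 within each P7 library. Those of Ptgis at P7 overlapped both Ptges and Pla2g4a. The order of these neighbours rests on means and was not tested.

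**Figure D1:**
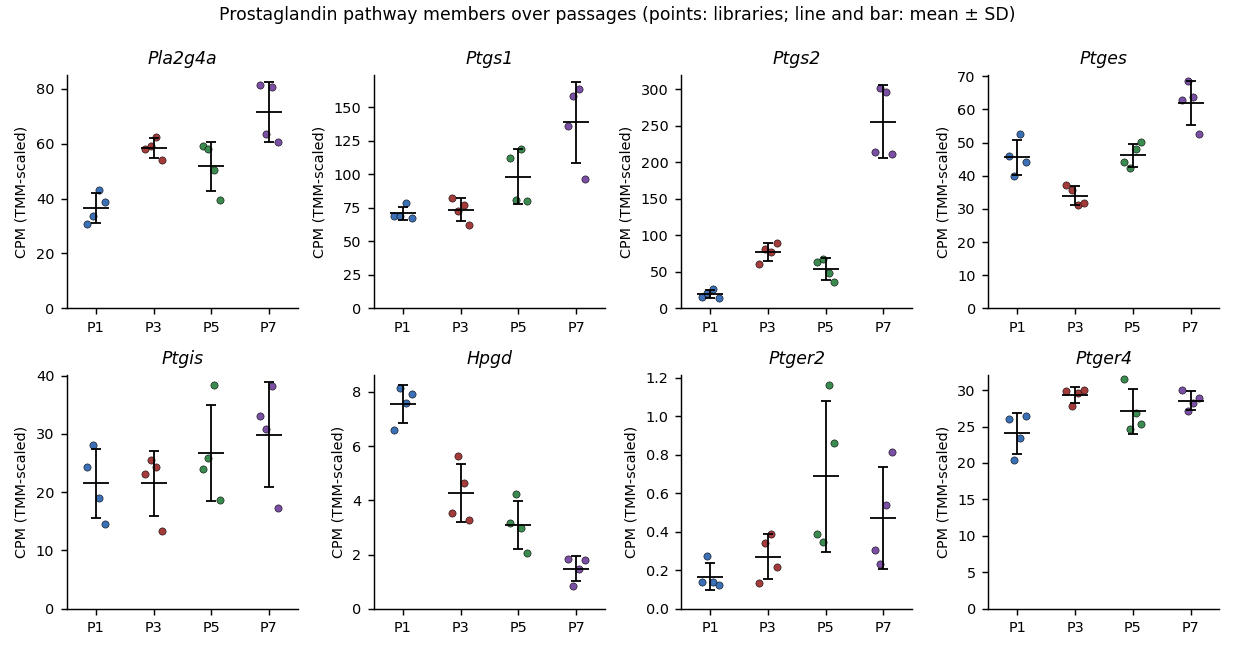
CPM of each member (y axis, TMM-scaled) at P1, P3, P5 and P7 (x axis); points are the 4 libraries of a passage and the line and bar are their mean and SD. Ptgs2 lay at 14.9 to 26.9 CPM at P1 and at 211 to 302 at P7, while Hpgd went from 6.57 to 8.16 CPM down to 0.849 to 1.83.

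Ptgs2, the inducible cyclooxygenase (chromosome 1, 150100031 to 150108234, plus strand, GRCm38), was at 16.1, 21.1, 26.9 and 14.9 CPM in the P1 libraries, 61.0, 81.5, 77.2 and 89.3 at P3, 64.3, 67.7, 48.3 and 35.9 at P5, and 215, 302, 297 and 211 at P7. All P7 libraries were above all earlier ones, the P3 and P5 libraries overlapped, and both lay above P1. The means were 19.7 ± 5.50, 77.3 ± 11.9, 54.0 ± 14.8 and 256 ± 49.8 CPM (SD, n = 4 each). The gene was therefore already higher at P3, and not at the last passage alone. The fitted log2 fold change was 1.97 (SE 0.21) at P3 against P1, −0.52 (SE 0.19) at P5 against P3 and 2.24 (SE 0.20) at P7 against P5, and P7 stood 13-fold above P1. Without any single library the P7 difference from P5 stayed between 2.09 and 2.37 on the log2 scale.

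The promoter of Ptgs2 carries binding sequences known from work on this gene, so its letters are shown. The 250 bases before the RefSeq start site (chr1:150099781-150100030, plus strand, GRCm38) were searched on both strands for 8 motifs, and capitals mark what was found.

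Ptgs2 promoter: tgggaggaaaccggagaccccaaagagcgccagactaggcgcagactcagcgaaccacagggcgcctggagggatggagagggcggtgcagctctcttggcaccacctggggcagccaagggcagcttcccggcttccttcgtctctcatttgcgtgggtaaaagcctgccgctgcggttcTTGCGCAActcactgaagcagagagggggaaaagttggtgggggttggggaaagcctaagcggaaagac

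Ptgs2 site past the start: gtcaccactaCGTCACGTGgagtccgcttt

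The capitals in the first sequence are a C/EBP motif (searched as TTGCNNAA) at 69 to 62 bases before the start. The second sequence (chr1:150100034-150100063, plus strand) begins 4 bases into the annotated transcript. Its capitals are a CRE half-site, the letters TGACG on the other strand, at bases 14 to 18, which overlaps by 2 bases an E-box, CACGTG, at bases 17 to 22. Matches of this kind are frequent: in 300-base promoter windows of RefSeq (250 bases before to 50 after the start, 32851 windows), 10.8% held the C/EBP motif, 20.8% the CRE half-site and 7.15% the E-box. AP-1 (searched as TGANTCA), the TATA box (searched as TATAAA), TEAD (searched as GGAATG), E2F (searched as TTTNNCGC) and NF-kB, searched by its usual consensus, had no match in the Ptgs2 window. Promoter sequences were available for 7 of the members and not for Ptgis. Ptgs1 and Ptger4 held none of the motifs in their windows, nor did the main start of Pla2g4a. Ptges held a TEAD match at 151 bases before the start, Hpgd a TATA match at base 5, Ptger2 a C/EBP match at base 40, and the shorter Pla2g4a transcript a TATA match at 200 bases before its start. TATA matches stood in 13.6% of all promoter windows and TEAD matches in 14.7%.

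Pla2g4a, cytosolic phospholipase A2, which supplies arachidonic acid, was at 30.9, 33.7, 43.2 and 38.6 CPM at P1, 58.2, 59.3, 62.4 and 53.8 at P3, 59.0, 57.9, 50.2 and 39.5 at P5, and 81.5, 63.3, 80.5 and 60.6 at P7. Its mean was higher at P3 than at P1, lower at P5 and highest at P7, where no library overlapped those of P1 or P5 but those of P3 did (P7 against P3 log2 0.29, SE 0.13, edgeR adjusted p = 0.0680). The log2 fold change was 0.67 (SE 0.13, edgeR adjusted p = 0.000605) at P3 against P1, −0.18 (SE 0.13, adjusted p = 0.320) at P5 against P3 and 0.47 (SE 0.13, adjusted p = 0.0177) at P7 against P5. The last did not pass without P7 replicate 1 (edgeR adjusted p = 0.0552) or P7 replicate 3 (0.0584). From P1 to P7 it rose 1.95-fold (log2 0.97, SE 0.13, edgeR adjusted p = 3.37e-06), just under the 2-fold threshold, and it passed that threshold without P1 replicate 3 (1.06), P7 replicate 2 (1.02) or P7 replicate 4 (1.04).

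Ptgs1, the cyclooxygenase held to be constitutive, was at 69.0, 68.9, 78.5 and 67.6 CPM at P1, 82.5, 72.4, 77.5 and 62.2 at P3, 112.49, 81.2, 119 and 79.8 at P5, and 136, 159, 163 and 96.8 at P7. The P7 libraries lay above all P1 and P3 libraries, and P7 replicate 4 fell within the P5 range. Ptgs1 rose later than Ptgs2, with no step detected at P3 (log2 0.05, SE 0.15, edgeR adjusted p = 0.820) and rises at P5 against P3 (0.42, SE 0.15, adjusted p = 0.0450) and at P7 against P5 (0.50, SE 0.15, adjusted p = 0.0269). Each of these rises missed the test without some single libraries. The edgeR adjusted p was up to 0.165 (without P5 replicate 3) for the first and up to 0.0886 (without P7 replicate 3) for the second. The rise from P1 to P7 was 1.95-fold (log2 0.97, SE 0.15, adjusted p = 1.67e-05). It passed the 2-fold threshold without P7 replicate 4 (log2 1.11) or P1 replicate 3 (1.02).

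Ptges, the microsomal synthase that makes prostaglandin E2 and is often induced with Ptgs2, was at 46.0, 39.8, 52.5 and 44.2 CPM at P1, 37.2, 35.7, 31.3 and 31.7 at P3, 44.002, 42.4, 48.2 and 50.04 at P5, and 62.7, 68.6, 63.7 and 52.6 at P7. It went down where Ptgs2 went up first, and every P3 library was below every P1 and P5 library. It fell at P3 against P1 (log2 −0.42, SE 0.10, edgeR adjusted p = 0.00346), rose at P5 against P3 (0.44, SE 0.10, adjusted p = 0.00392) and rose again at P7 against P5 (0.42, SE 0.10, adjusted p = 0.00685). Ptgis, prostacyclin synthase, varied more between libraries than between passages, at 14.6 to 28.1 CPM at P1, 13.3 to 25.4 at P3, 18.7 to 38.3 at P5 and 17.2 to 38.3 at P7. Replicate 4 was its lowest library at each passage, and its difference at P7 against P1 was 0.47 (SE 0.25, edgeR adjusted p = 0.108), which passed without P7 replicate 4 (0.67, adjusted p = 0.0185) and with the replicate number as a block (adjusted p = 0.0120). The exons of Ptges and Ptgis each overlap a predicted gene on the opposite strand in RefSeq, and the counting ignored strand, so their counts are uncertain to that extent.

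Hpgd, the dehydrogenase that inactivates prostaglandins, went the other way. It was at 6.57, 8.16, 7.59 and 7.92 CPM at P1, 3.55, 5.62, 4.64 and 3.29 at P3, 3.17, 4.22, 2.97 and 2.05 at P5, and 1.83, 0.849, 1.46 and 1.78 at P7, from 96 to 128 counts per library at P1 and 11 to 24 at P7. Each P7 library was below each library of the earlier passages. Hpgd fell 5.08-fold from P1 to P7 (log2 −2.34, SE 0.25, edgeR adjusted p = 1.24e-07), with −0.82 (SE 0.22, adjusted p = 0.00691) at P3 against P1, −0.47 (SE 0.23, adjusted p = 0.135) at P5 against P3 and −1.06 (SE 0.26, adjusted p = 0.00898) at P7 against P5. The last value was under 2-fold without P5 replicate 2 (−0.88) or P7 replicate 2 (−0.87). The macrophage, endothelial, adipocyte, keratinocyte and muscle markers had lower sums at P7 than at P1, and their part in the fall of Hpgd was not tested.

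Of the receptors among the members, Ptger4, the EP4 receptor of prostaglandin E2, was at 20.4 to 26.4 CPM at P1, 27.8 to 30.1 at P3, 24.6 to 31.5 at P5 and 27.1 to 30.1 at P7. It rose 1.22-fold at P3 against P1 (log2 0.28, SE 0.10, edgeR adjusted p = 0.0320) and stood 1.19-fold above P1 at P7 (0.25, SE 0.10, adjusted p = 0.0372), with no later step passing the test. Both differences missed the test without P1 replicate 2 (edgeR adjusted p = 0.123 and 0.134) and without some other libraries. Ptger2, the EP2 receptor, had 2 to 18 counts per passage library, between 0.124 and 1.16 CPM, and was left out by the filter on low counts, so it is not among the genes tested over passages. With no filter, its difference at P5 against P3 did not pass (log2 1.32, SE 0.55, edgeR adjusted p = 0.0946), nor did it with DESeq2 (1.35, adjusted p = 0.0956).

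Ptgs2 aside, 6 members passed the filter in the passage libraries. At P3 against P1, 4 of these 6 changed and 0 were called, where 33.4% of all 13442 genes changed and 8.98% were called. At P5 against P3 the members gave 2 changed and 0 called against 28.7% and 3.89%, and at P7 against P5 they gave 4 changed and 1 called, Hpgd, against 16.8% and 3.47%. At P7 against P3 it was 3 changed and 1 called against 51.3% and 11.9%, and at P7 against P1 it was 5 changed and 1 called against 62.5% and 21.4%. With so many genes moving from P1 to P7, the counts there are close to the background, and the steps share libraries with each other. The median log2 fold change of the 6 was 0.46 at P7 against P1, where the median of all genes was −0.01. The members were chosen with earlier results of these data known, so these comparisons are a description.

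**Figure D2:**
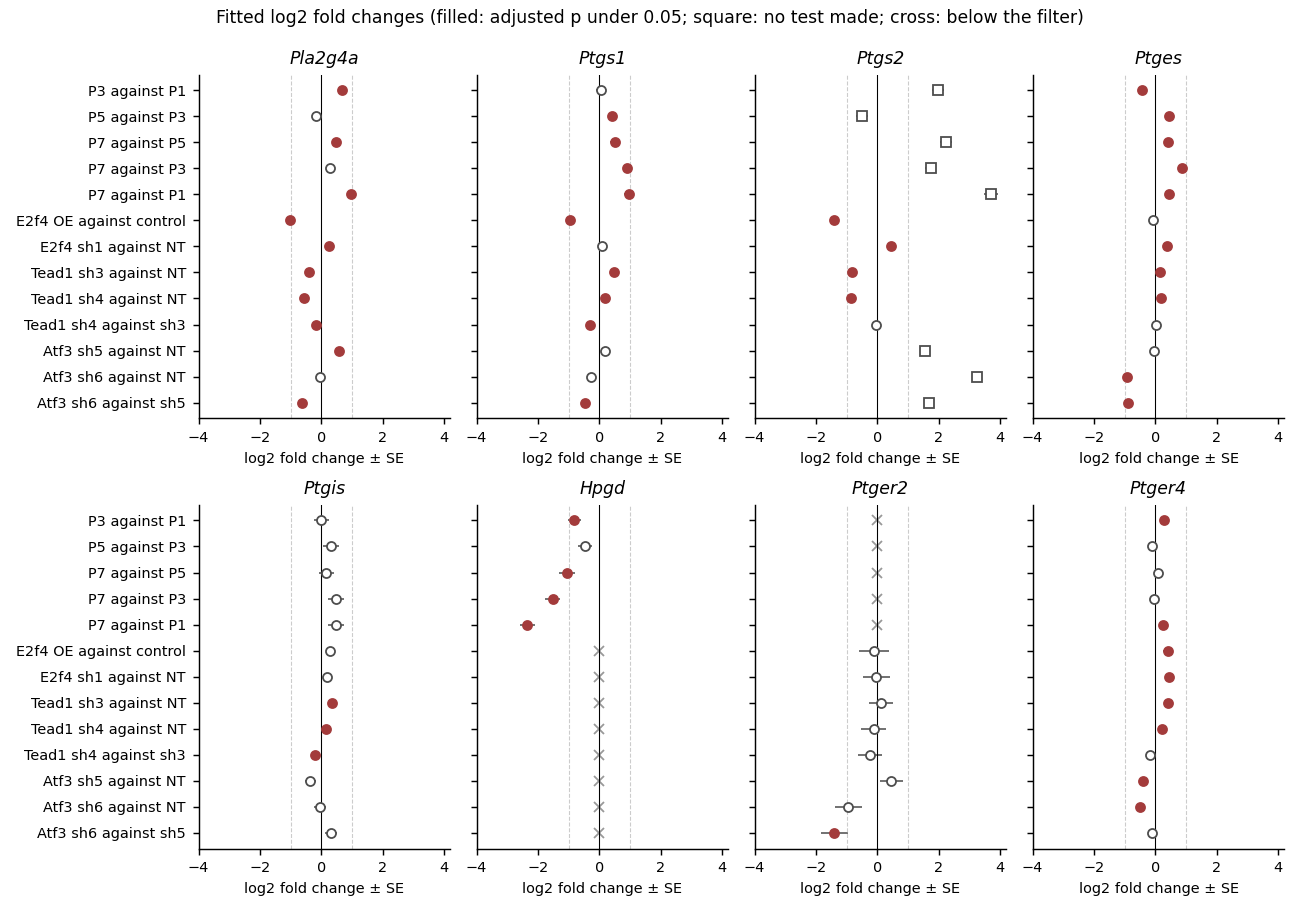
Fitted log2 fold change with SE (x axis) of each member in the 13 comparisons (y axis); filled points passed an adjusted p of 0.05, squares were not tested because the values chose the members, crosses at 0 fell below the filter, and dashed lines mark 2-fold. Ptgs2 spans −1.41 with E2f4 OE to 3.70 at P7 against P1, and Hpgd has values in the passage comparisons alone.

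To ask which genes followed Ptgs2, log2 CPM was correlated over the 16 passage libraries among 9425 genes with an average log2 CPM of at least 3. The nearest were Ereg, the growth factor epiregulin (Pearson r = 0.970), Sh3kbp1, an endocytic adaptor (0.969), Enah, an actin regulator (0.967), Steap2, a metalloreductase (0.962), and Ttc13 (0.955). Ereg averaged 5.81 CPM in P1, 10.7 in P3, 7.97 in P5 and 24.1 in P7 libraries, the same up, down and up again as Ptgs2. Among members, Pla2g4a had r = 0.902 and ranked 68, Ptgs1 had r = 0.736 and ranked 1021, and Ptger4, Ptges and Ptgis had 0.543, 0.421 and 0.366. These are descriptions across libraries that share 4 passages, so a gene with the same passage means ranks high.

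E2F4 is a cell-cycle transcription factor, and the study asked how its overexpression acts on RS. With E2f4 OE, Ptgs2 was at 381 and 295 CPM against 886 and 908 in the vector control. It fell 2.65-fold (log2 −1.41, SE 0.13, edgeR adjusted p = 1.63e-05), and the libraries did not overlap. Pla2g4a and Ptgs1 fell with it: Pla2g4a was at 119 and 97.1 CPM against 218 and 216 (log2 −1.01, SE 0.12, edgeR adjusted p = 7.08e-05). Ptgs1 was at 128 and 142 CPM against 256 and 265 (log2 −0.95, SE 0.11, edgeR adjusted p = 4.95e-05). No fall passed the test for the terminal synthases: Ptges was at 45.1 and 47.7 CPM against 46.9 and 50.7 (−0.07, SE 0.12), and Ptgis at 104 and 110 against 84.3 and 92.8 (0.27, SE 0.11, edgeR adjusted p = 0.0524). Ptger4 rose 1.31-fold (log2 0.39, SE 0.15, edgeR adjusted p = 0.0384), from 16.7 and 17.2 to 24.5 and 19.97 CPM. It did not pass without OE replicate 1 (0.23, edgeR adjusted p = 0.399). Hpgd had 1 to 6 counts per library and fell below the filter, and Ptger2, at 9 to 27 counts, had a log2 difference of −0.11 with an SE of 0.49. Of the 7 members tested, 4 changed and 2 were called (Ptgs2 and Pla2g4a), where 57.2% of 13199 genes changed and 18.1% were called. The call of Pla2g4a rested on OE replicate 2, without which the log2 value was −0.86, and it was just under 2-fold without control replicate 1. Without OE replicate 2 Ptgs1 was past it, at −1.02. Skeletal muscle markers summed to 23.01 to 24.1 CPM with OE and 67.4 to 77.05 in the control, and keratinocyte markers to 68.9 to 71.5 and 47.9 to 49.5, and their part in these differences was not tested.

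Knockdown of E2f4 by sh1 went the opposite way for Ptgs2 and Pla2g4a. The paper knocked E2f4 down in proliferating fibroblasts and overexpressed it in pre-senescent ones. The sizes of the differences are therefore not set against each other. Ptgs2 was at 328, 374 and 270 CPM against 243, 236 and 244 with NT, a rise of 1.35-fold (log2 0.43, SE 0.09, edgeR adjusted p = 0.00476). Pla2g4a was at 138, 151 and 138 CPM against 123, 121 and 117 (log2 0.25, SE 0.07, adjusted p = 0.0168). Ptges rose too, from 51.9 to 56.2 up to 69.8 to 73.4 CPM (0.39, SE 0.08, edgeR adjusted p = 0.00309), as did Ptger4, from 24.7 to 28.1 up to 33.2 to 38.3 CPM (0.45, SE 0.10, adjusted p = 0.00574). In each of these 4 the 3 sh1 libraries stood above the 3 NT libraries. Ptgs1 overlapped, at 209 to 262 CPM against 221 to 240, and Ptgis had a difference of 0.18 (SE 0.07, edgeR adjusted p = 0.0876). Of 7 members tested, 4 changed and 0 were called, where 17.8% of 12310 genes changed and 1.67% were called. Without NT replicate 1, Ptgs2 (log2 0.43, adjusted p = 0.0333), Ptges (0.40, 0.0211) and Ptger4 (0.44, 0.0375) passed the edgeR test and Pla2g4a did not (0.26, adjusted p = 0.0615), nor did it without NT replicate 2, NT replicate 3 or sh1 replicate 2 (adjusted p up to 0.0700). Without sh1 replicate 3, Ptgs1 rose by 0.18 (edgeR adjusted p = 0.0171) and Ptgis by 0.20 (adjusted p = 0.0381). Muscle markers summed to 111.7 to 136 CPM with sh1 and 74.9 to 76.8 with NT, and fibroblast markers to 27092 to 30411 and 35508 to 36600.3, and their part was not tested.

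**Figure D3:**
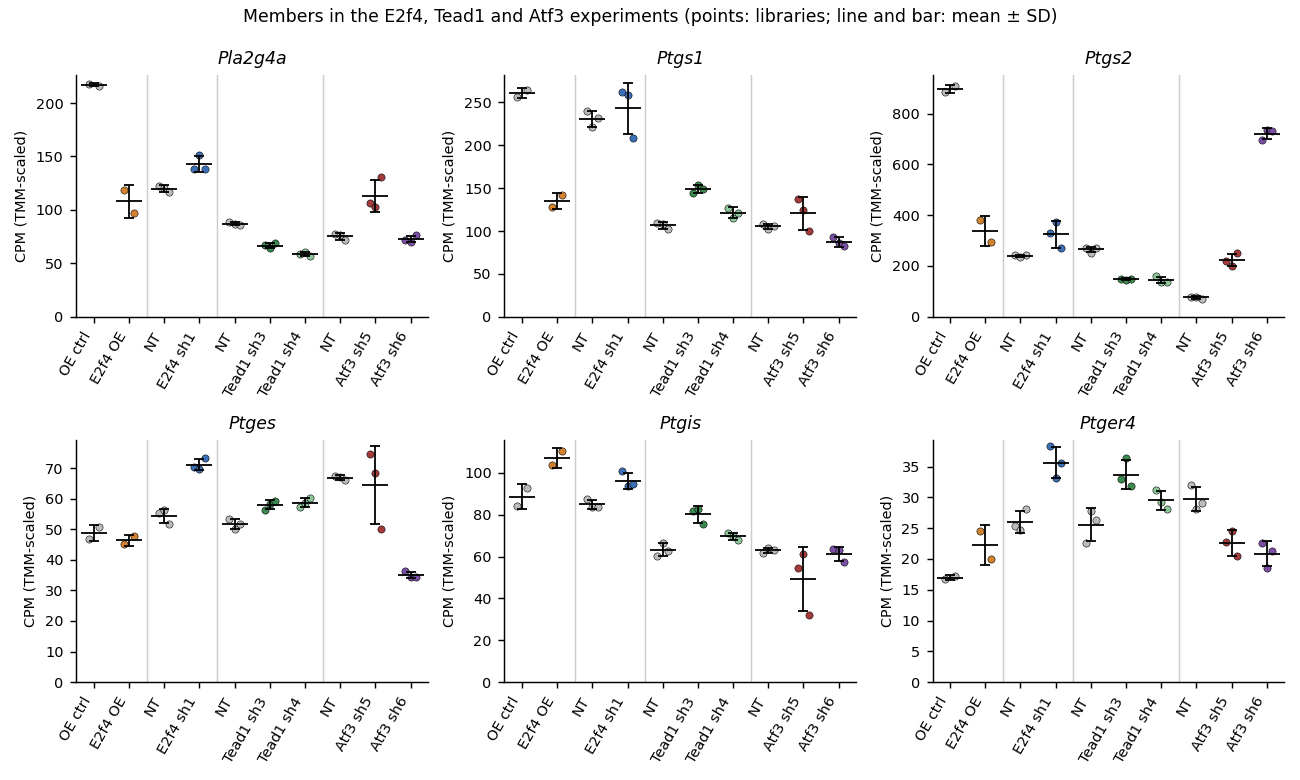
CPM (y axis, TMM-scaled) of the 6 members with the most counts in the control and changed libraries of the E2f4, Tead1 and Atf3 experiments (x axis, experiments split by grey lines); points are libraries, the line and bar their mean and SD. Ptgs2 lies near 338 CPM with E2f4 OE against 897 in its control, and near 722 with Atf3 sh6 against 76.4 with NT.

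TEAD1 is the DNA-binding partner of the YAP and TAZ coactivators. Ptgs2 was lower with both of its hairpins, which share their 3 NT libraries: it was at 151, 144 and 151 CPM with sh3 and 159, 137 and 137 with sh4, against 270, 253 and 272 with NT. The fall was 1.79-fold with sh3 (log2 −0.84, SE 0.05, edgeR adjusted p = 1.98e-14) and 1.83-fold with sh4 (−0.87, SE 0.05, adjusted p = 2.17e-14). The hairpins differed by −0.04 (SE 0.05, adjusted p = 0.734), and their libraries overlapped. By the sequences the study lists, sh3 and sh4 target almost the same bases of Tead1. Agreement between these hairpins is therefore not independent. Pla2g4a fell as well, from 86.2 to 88.5 CPM to 64.0 to 68.6 with sh3 (log2 −0.39, SE 0.05, edgeR adjusted p = 2.46e-07) and 56.8 to 60.6 with sh4 (−0.57, SE 0.05, adjusted p = 2.60e-10). The other cyclooxygenase went up: Ptgs1 rose from 102 to 109 CPM to 144 to 153 with sh3 (0.48, SE 0.05, edgeR adjusted p = 1.46e-09) and 115 to 127 with sh4 (0.19, SE 0.05, adjusted p = 0.00355). Ptger4 was at 22.7 to 27.8 CPM with NT, 31.8 to 36.3 with sh3 (0.40, SE 0.08, edgeR adjusted p = 0.000150) and 28.2 to 31.2 with sh4 (0.21, SE 0.08, adjusted p = 0.0475). The sh4 rise missed the test without NT replicate 1 (0.13, edgeR adjusted p = 0.267) and, in turn, without 3 other libraries. Ptgis rose by 0.34 and 0.14 and Ptges by 0.16 and 0.18 on the log2 scale, with edgeR adjusted p between 6.46e-06 and 0.0495. Of these, the sh3 rise of Ptgis alone still passed with any 1 library left out. The cyclooxygenases thus moved in opposite directions in these cells. Of 7 members tested, 6 changed with each hairpin and 0 were called, where 35.4% (sh3) and 29.1% (sh4) of 13012 genes changed and 2.71% and 1.53% were called. Between the hairpins, 3 members changed and 0 were called, against 7.37% and 0.269%. Muscle markers summed to 64.9 to 75.5 CPM with sh3, 73.7 to 83.6 with sh4 and 98.4 to 100.05 with NT, and their part was not tested.

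Atf3 belongs to the AP-1 and ATF family of stress-response factors and was knocked down in cells before senescence. Ptgs2 was at 79.3, 78.9 and 71.2 CPM with NT, 218, 201 and 250 with sh5, and 698, 735 and 732 with sh6. All libraries of both hairpins stood above all NT libraries, so the level was higher with both and not with 1 hairpin alone, by 2.92-fold (log2 1.55, SE 0.09) with sh5 and 9.44-fold (3.24, SE 0.09) with sh6. Sh6 stood 3.23-fold above sh5. Atf3 RNA was low and overlapped between the hairpins, at 1.51 to 2.09 CPM with sh6 and 0.451 to 2.10 with sh5. The study also measured the knockdown by RT-qPCR and immunoblot. The part of Atf3 in these Ptgs2 differences was not tested. Both hairpins share the NT libraries. Without sh5 replicate 3, the library that stood apart, the sh5 difference was 1.48.

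Among the other members in the Atf3 experiment, Ptges was at 65.99 to 67.4 CPM with NT and 50.2 to 74.6 with sh5, and it fell to 34.4 to 36.2 with sh6 (log2 −0.93, SE 0.13, edgeR adjusted p = 0.000164), where Ptgs2 was highest. Pla2g4a rose with sh5, from 71.6 to 77.7 CPM to 103 to 131 (0.59, SE 0.10, edgeR adjusted p = 0.00192), and was at 70.4 to 76.1 with sh6 (−0.05, SE 0.10, adjusted p = 0.713). Ptger4 fell with each, from 28.2 to 32.0 CPM to 20.4 to 24.6 (−0.40, SE 0.11, edgeR adjusted p = 0.0191) and 18.6 to 22.5 (−0.52, SE 0.11, adjusted p = 0.00312). Its sh5 fall did not pass without NT replicate 1 (edgeR adjusted p = 0.0697) or NT replicate 3 (0.0528). Ptgs1, at 102 to 108 CPM with NT, was at 100 to 138 with sh5 (0.20, SE 0.11, edgeR adjusted p = 0.177) and 82.4 to 93.5 with sh6 (−0.27, SE 0.11, adjusted p = 0.0641). The sh6 and NT libraries of Ptgs1 did not overlap, and with these groups alone the fall passed (adjusted p = 0.00192). Sh5 replicate 3 decided the sh5 result of Ptgs1, which without it was a rise of 0.34 (adjusted p = 0.000941), and that of Ptger2 at 0.83 (adjusted p = 0.0357). Ptgis had no change past the test, and its sh5 libraries stood at 54.7, 61.0 and 31.9 CPM, the last being replicate 3. Hpgd had 0 to 4 counts per library with NT and sh5 and 4 to 13 with sh6.

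Ptgs2 aside, 6 members were tested in the Atf3 experiment. With sh5, 2 changed and 0 were called against 35.9% and 5.20% of 13345 genes. With sh6 it was again 2 and 0, against 49.8% and 15.7%. Between the hairpins 4 changed and 1, Ptger2, was called, against 52.6% and 15.8%. Ptger2 had 15 to 46 counts per library with sh5 and 8 to 15 with sh6 (log2 −1.40, SE 0.43, edgeR adjusted p = 0.0189), and without sh5 replicate 1, sh5 replicate 2 or sh6 replicate 2 the adjusted p was 0.0690, 0.0563 and 0.0736. Without sh5 replicate 3 Ptges was called too, at a log2 difference of −1.05 (edgeR adjusted p = 6.13e-09).

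The list of 68 further pathway genes held phospholipases, terminal synthases, breakdown and transport genes, receptors, the leukotriene branch and known regulators of Ptgs2, and 48 of them were tested over passages. From P1 to P7, 22 rose and 15 fell, and 6 and 8 were called, where 62.5% of all genes changed and 21.4% were called. Among terminal synthases Hpgds, the hematopoietic prostaglandin D synthase, fell from 5.20 to 0.0753 CPM (log2 −5.94, SE 0.59, edgeR adjusted p = 5.12e-08), most of it by P3 (0.359 CPM), with 60 to 89 counts per library at P1 and 0 to 2 at P7. It is known from mast cells and macrophages, whose markers fell over the same step, and their part in it was not tested. Of 5 receptors tested, Tbxa2r, for thromboxane, rose from 10.5 to 28.95 CPM (1.47, SE 0.23, edgeR adjusted p = 1.32e-05), while Ptgir, for prostacyclin, fell from 27.4 to 11.6 (−1.24, SE 0.17, adjusted p = 2.57e-06) and Ptger3, the EP3 receptor, from 5.83 to 2.64 (−1.15, SE 0.38, adjusted p = 0.0132). Among 9 phospholipases, Pla2g7, which degrades platelet-activating factor, rose at P7 against P5 (4.15 to 18.1 CPM, log2 2.12, SE 0.25, edgeR adjusted p = 8.84e-06), the step with the larger Ptgs2 difference. Secreted Pla2g2e fell from 18.8 CPM at P1 to 5.18 at P7 (−1.86, SE 0.17, edgeR adjusted p = 2.00e-08). Of 20 regulators tested, 8 rose and 6 fell. Cebpd, a C/EBP factor, went from 26.6 to 101 CPM (1.93, SE 0.19, edgeR adjusted p = 5.13e-08). Egr1, an immediate early factor, went from 30.6 to 73.9 (1.27, SE 0.21, edgeR adjusted p = 3.16e-05). Il1rn, the interleukin-1 receptor antagonist, went from 18.9 to 2.92 (−2.69, SE 0.38, edgeR adjusted p = 4.81e-06). The part of these regulators in the Ptgs2 difference was not tested. Over the other passage comparisons the same 48 gave 6 higher and 12 lower at P3 against P1, 10 and 5 at P5 against P3, 7 and 4 at P7 against P5, and 22 and 9 at P7 against P3, where 33.4%, 28.7%, 16.8% and 51.3% of all genes changed.

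Under E2f4 OE, 20 of 42 such genes rose and 8 fell, among them 11 and 4 of 20 regulators, where 57.2% of all genes changed. Of the regulators, 5 were called higher and 0 lower. Among the 5 were Cebpb (58.3 to 195 CPM, log2 1.75, SE 0.19, edgeR adjusted p = 4.14e-05), Cebpd (31.1 to 143, 2.201, SE 0.12, adjusted p = 2.54e-06), Junb (64.2 to 148, 1.21, SE 0.23, adjusted p = 0.00110) and Fosl1 (3.20 to 9.57, 1.61, SE 0.27, adjusted p = 0.000545). These are C/EBP and AP-1 factors known to act on Ptgs2 in other settings. Their part in the Ptgs2 difference was not tested. With E2f4 sh1, 5 rose and 5 fell, where 17.8% of all genes changed, and the 1 gene called was Ptger3 (1.59 to 5.29 CPM, log2 1.73, SE 0.28, edgeR adjusted p = 0.000678). With Tead1 hairpins, 16 rose and 7 fell (sh3) and 9 rose and 6 fell (sh4) of 44, where 35.4% and 29.1% of all genes changed. Slco2a1, the transporter that takes prostaglandins up into cells, went from 54.6 CPM to 159 with sh3 (1.54, SE 0.06, edgeR adjusted p = 1.50e-17) and 137 with sh4 (1.33, SE 0.06, adjusted p = 5.71e-16), while Ptgs2 fell.

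With Atf3 hairpins, 7 of 44 rose and 10, Atf3 itself included, fell (sh5), and 9 rose and 12 fell (sh6). These are 17 and 21 of 44, where 35.9% and 49.8% of all genes changed. Of 5 receptors tested, 4 fell and 0 rose with sh6, and 3 fell and 2 rose with sh5. Tbxa2r went from 33.8 CPM to 12.9 with sh5 (log2 −1.39, SE 0.31, edgeR adjusted p = 0.00731) and 3.13 with sh6 (−3.43, SE 0.35, adjusted p = 2.30e-05), and Ptgir from 9.49 to 3.93 (−1.27, SE 0.22, adjusted p = 0.00278) and 1.58 (−2.58, SE 0.25, adjusted p = 1.52e-05). Slco2a1 fell with sh6, from 37.6 to 11.8 CPM (−1.67, SE 0.14, edgeR adjusted p = 5.16e-06), and was at 36.6 with sh5. Of the regulators, Zfp36, an RNA-binding protein that shortens the life of inflammatory mRNAs, rose with sh6 from 22.5 to 62.8 CPM (1.48, SE 0.13, edgeR adjusted p = 8.46e-06). With sh5 Zfp36 was at 15.1 CPM, below NT. Nr3c1, the glucocorticoid receptor, fell with sh6 from 111 to 45.2 CPM (−1.30, SE 0.07, edgeR adjusted p = 2.61e-07). Tsc22d3, a gene that glucocorticoids induce, fell with sh6 from 42.8 to 16.01 (−1.42, SE 0.11, edgeR adjusted p = 3.83e-06). With sh5 Nr3c1 was at 92.4 CPM and Tsc22d3 at 35.2. None of Slco2a1, Zfp36, Nr3c1 and Tsc22d3 was called with sh5. The fibroblast markers moved too, at 17060 to 17906 CPM summed with sh6 and 25377 to 37622 with sh5 against 39025 to 40744 with NT. Muscle markers were higher with sh6, at 199 to 217 against 37.9 to 39.3, and lower with sh5, at 16.7 to 18.3. Their part in these differences was not tested.

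ATAC-seq marks open chromatin by the insertion of a transposase. The peak lists hold no read counts, so depth is unknown, and the strength of a peak was taken as the percentile of its −log10 p among all peaks of the same sample, with 0 where there was none. At the Ptgs2 start the strongest summit within 1000 bases was at the 88.7, 90.6, 91.5 and 90.5 percentile in the P1 samples and at 87.9, 81.6 and 87.4 in the P7 samples. The rank of the promoter peak was lower at P7 (−4.71 points, exact two-sided permutation test p = 0.0286, the smallest it can give with 4 against 3, adjusted over the 8 members 0.0457). Without P7 replicate 2 the difference was −2.71. Over all 19428 start sites with a peak in any sample, the median difference was −1.87 points (quartiles −7.88 and 0.456). Both the Ptgs2 value and that of Ptger4 (−3.17) lay between these quartiles. A rank depends on the other peaks of a sample, and the lists held 203912 to 265932 summits. The rank was already lower at P3 (84.6 ± 1.87) and P5 (85.6 ± 2.74, SD, n = 3 each). By fold enrichment at the summit, the means were 9.82 at P1 and 7.89 at P7, and the difference did not pass (exact permutation p = 0.0571, adjusted 0.152).

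Peaks at the start sites of other members also ranked lower at P7. Ptgs1 went from 84.8 ± 3.91 (SD, n = 4) to 58.1 ± 12.4 (n = 3), Pla2g4a from 87.0 ± 0.857 to 67.0 ± 6.15, Hpgd from 65.5 ± 2.73 to 35.2 ± 17.1 and Ptger4 from 97.0 ± 0.467 to 93.9 ± 0.332. In each of these the P7 samples lay below all P1 samples (exact permutation p = 0.0286, adjusted 0.0457). For Hpgd the RNA fell too, whereas for Ptgs1 and Pla2g4a it rose. Ptger2 (57.5 to 38.4, exact permutation p = 0.0571, adjusted 0.0762), Ptges (49.6 to 33.3, 0.2, adjusted 0.229) and Ptgis (6.55 to 9.24, 0.686) did not pass. With a narrower window around the start site Ptges did, at a difference of −26.4 (exact permutation p = 0.0286, adjusted 0.0381). That 5 of the 8 were lower without overlap has to be read against 35.4% of 19428 start sites that were lower in this way and 9.74% that were higher. By fold enrichment no member passed after adjustment, and Ptger4 was higher at P7 by 0.715.

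**Figure D4:**
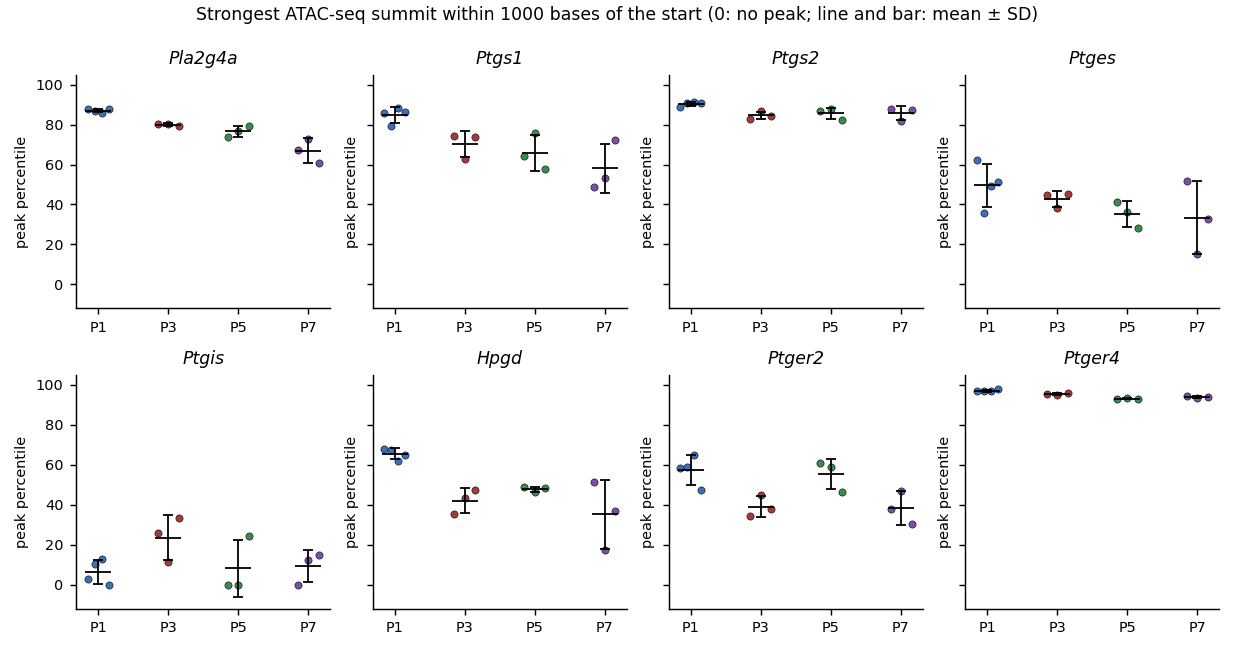
Percentile of the strongest ATAC-seq summit within 1000 bases of each member's start site (y axis, 0 where a sample had no peak) at P1 (4 samples) and P3, P5 and P7 (3 samples each); points are samples, the line and bar their mean and SD. Ptgs1 goes from 84.8 to 58.1 and Ptgs2 only from 90.3 to 85.6.

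Ptgs2 and Pla2g4a are neighbours on chromosome 1, transcribed away from each other from starts 138.7 kb apart. The stretch from 100 kb beyond Pla2g4a to 100 kb beyond Ptgs2 (149729618 to 150208234, 478.6 kb) held 87 regions with a peak in any of the 13 samples. In 27 of them all P7 samples were above all P1 samples, and in 3 they were below, where 19.5% of all 306858 regions were higher and 7.79% lower. The 3 lower ones were the Ptgs2 promoter, the Pla2g4a promoter and a region with its strongest summit 35.6 kb past the Ptgs2 start. Within 100 kb of the Ptgs2 start 13 of 38 regions were higher and 2 lower, and within Pla2g4a 10 of 33 were higher. In the other 57 regions the P1 and P7 samples overlapped.

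The 4 regions near Ptgs2 with the greatest gain were picked by that gain from P1 to P7, so their values are a description. The region at +70.1 kb from the start was at 52.6, 39.4, 34.2 and 40.3 at P1, 72.1, 68.9 and 69.3 at P3, 83.4, 84.4 and 74.8 at P5, and 87.1, 94.3 and 85.5 at P7, a gain at each passage. The region at +54.6 kb was at 40.4, 45.1, 51.5 and 61.5 at P1, 51.8, 34.5 and 47.5 at P3, 69.0, 79.5 and 78.6 at P5, and 84.2, 84.6 and 81.9 at P7, so its gain came after P3. The region at +23.0 kb was at 17.6, 42.6, 47.2 and 29.6 at P1 and 76.5, 86.5 and 79.7 at P7. The region at +8.8 kb, which starts in the last exon of Ptgs2 and has its summit past the end of the gene, went from 13.99, 21.7, 38.0 and 9.74 to 55.1, 60.3 and 73.1. Higher peaks at both passages stood at −10.8 kb in an intron of Ptgs2os (93.0 ± 1.28 to 97.5 ± 0.558) and at +15.6 kb (93.0 ± 1.66 to 97.2 ± 0.548), close to the top of the scale. All these distances are those of the strongest summit.

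**Figure D5:**
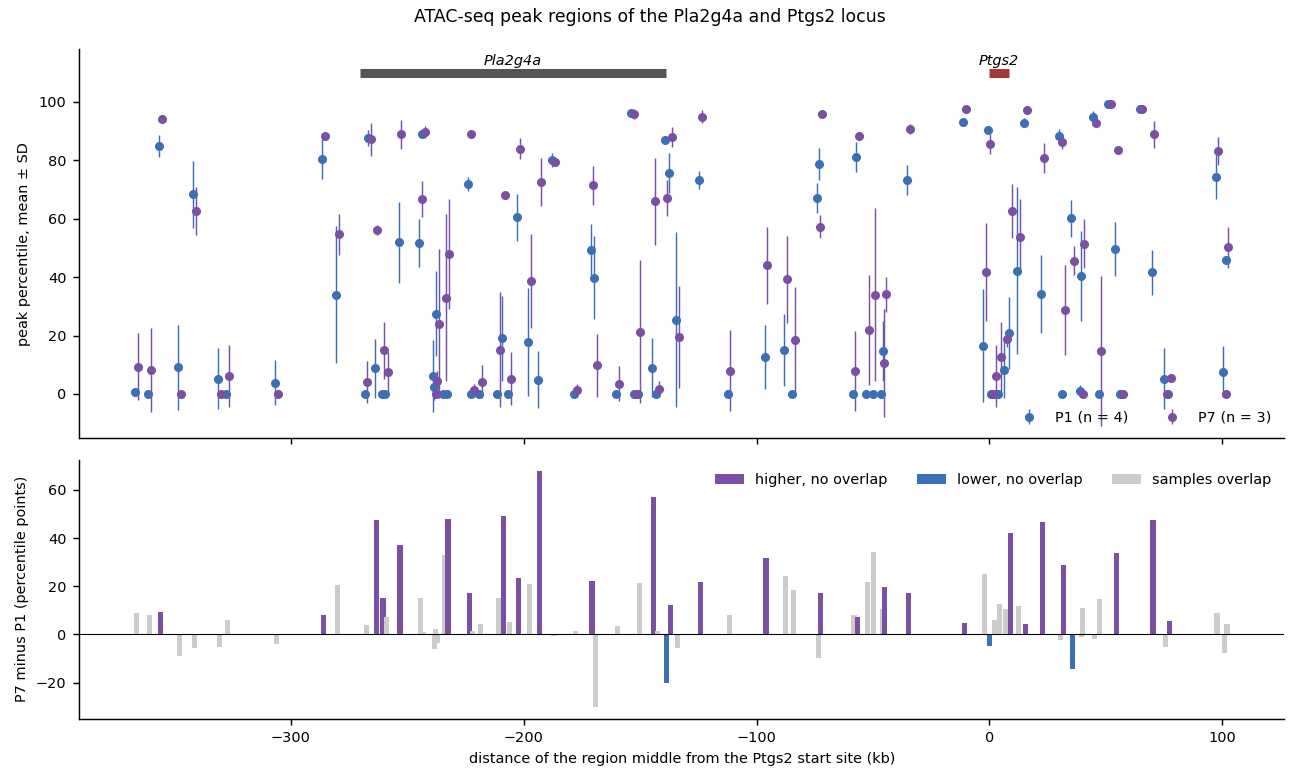
Peak regions of the Pla2g4a and Ptgs2 locus by distance of the region middle from the Ptgs2 start (x axis, kb). Above, mean and SD of the peak percentile at P1 (4 samples) and P7 (3 samples). Below, P7 minus P1 in percentile points, coloured where the samples did not overlap. Of 87 regions 27 are higher and 3 lower at P7, and the bars at both promoters point down.

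The 201 bases around the strongest summit of these 4 regions are shown (plus strand, GRCm38), since they are the stretches near Ptgs2 that opened most. Capitals mark matches to the 8 motifs on either strand.

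+8.8 kb: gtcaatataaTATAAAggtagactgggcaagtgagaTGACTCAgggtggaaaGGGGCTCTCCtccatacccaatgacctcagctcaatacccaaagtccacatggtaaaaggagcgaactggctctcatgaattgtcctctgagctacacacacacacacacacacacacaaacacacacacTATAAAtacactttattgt

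+23.0 kb: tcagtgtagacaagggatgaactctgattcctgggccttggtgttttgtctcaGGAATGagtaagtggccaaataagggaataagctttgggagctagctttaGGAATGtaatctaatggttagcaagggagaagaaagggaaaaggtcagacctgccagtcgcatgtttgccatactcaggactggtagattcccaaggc

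+54.6 kb: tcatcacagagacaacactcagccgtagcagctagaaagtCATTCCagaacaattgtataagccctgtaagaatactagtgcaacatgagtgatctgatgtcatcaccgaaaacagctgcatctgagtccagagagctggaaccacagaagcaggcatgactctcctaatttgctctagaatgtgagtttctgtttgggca

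+70.1 kb: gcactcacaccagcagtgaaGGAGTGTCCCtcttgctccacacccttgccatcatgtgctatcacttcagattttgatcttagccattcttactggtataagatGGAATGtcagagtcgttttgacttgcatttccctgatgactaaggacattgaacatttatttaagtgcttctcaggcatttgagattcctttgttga

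The windows are chr1:150108761-150108961, chr1:150122936-150123136, chr1:150154531-150154731 and chr1:150170079-150170279. The first holds an AP-1 match 64 to 58 bases before the summit, an NF-kB match 48 to 39 bases before it and a pair of TATA matches. The second holds 2 TEAD matches, the third holds 1 on the other strand, and the fourth holds 1 at 4 to 9 bases past the summit and an NF-kB match 80 to 71 bases before it. Over the 201-base windows of all regions, 28.2% held the AP-1 motif, 19.6% the TEAD motif and 2.10% the NF-kB motif, and among the 59809 regions higher at P7 the shares of AP-1 and TEAD were 33.5% and 25.6%. At the locus, 10 of the 27 higher regions held AP-1 and 7 TEAD, against 30 and 18 of all 87. A match describes letters and not a bound site.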

How the data were processed

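RNA-seq was measured in 44 libraries and ATAC-seq in 13 samples. The members and the gene lists were chosen with earlier results of these data known. Per the labels and the study's methods, the authors trimmed RNA-seq reads (Trimmomatic 0.39), aligned them to mm10 (HISAT2 2.2.1) and counted reads per gene without strand (HTSeq 0.12.4), and deposited raw counts for each library. Rows that name no gene made up 7.50% to 16.8% of reads in the 28 libraries that list them and were left out. ATAC-seq reads were aligned (Bowtie2 2.3.5.1) and peaks called per sample (MACS2), and the deposited peak lists give the fold enrichment over background (a ratio) and the −log10 p and −log10 q of each summit, with 203912 to 265932 summits per sample and no read counts. The methylation data of the study were not analysed here.

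Each RNA-seq experiment was fitted on its own in edgeR 4.0.16 (R 4.3.3) with the filterByExpr filter, TMM scaling and the quasi-likelihood test, and p-values were adjusted by Benjamini-Hochberg over all genes of a comparison. The steps were tested on simulated data. Named pathway genes are those called in any comparison, and the genes most like Ptgs2 are the 5 with the highest correlation. Peaks at start sites were compared by exact two-sided permutation over samples. Promoters came from RefSeq (GRCm38), and peak windows were read from that genome. Replicate pairs differed by 2.74 to 59.9 in chi-square per degree of freedom, so none was counted as a duplicate. Alternatives were DESeq2 1.42.0, its size factors, no filter on low counts, no fold threshold, a replicate block, the compared groups alone, each library left out in turn, and for peaks other strengths, windows and merging distances.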

Additional observations from a re-analysis of the deposited data

Results flagged for a closer look

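In the P1 RNA-seq libraries, Ptgs1 was at 78.5 CPM in replicate 3 with its nearest neighbour at 69.0, a gap of 0.877 of the group's range, and Ptger2 was at 0.272 CPM in replicate 2 with its nearest neighbour at 0.137, a gap of 0.911 of the range. A gap beyond the 95% critical value of Dixon's test marks a library as far from the other 3, and chance marks about 1 in 20 groups, of which 40 were examined. The Ptger2 value rests on 2 to 4 counts per library.

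The hairpins against the same gene differed in several members, by edgeR's test of the difference itself. Between Tead1 sh4 and sh3 the log2 difference was −0.30 (adjusted p = 0.000101) for Ptgs1, −0.20 (adjusted p = 0.0169) for Ptgis and −0.18 (adjusted p = 0.0255) for Pla2g4a. The Ptgis difference did not pass without sh3 replicate 1, sh3 replicate 2 or sh4 replicate 3 (edgeR adjusted p up to 0.0896). That of Pla2g4a did not pass without sh3 replicate 1 or 3 or sh4 replicate 1 or 3 (up to 0.121). Between Atf3 sh6 and sh5 the log2 difference was −0.47 (adjusted p = 0.00502) for Ptgs1, −0.88 (adjusted p = 0.000260) for Ptges, −1.40 (adjusted p = 0.0189) for Ptger2 and −0.64 (adjusted p = 0.000343) for Pla2g4a.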

How the results depend on the processing

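With no fold threshold, the members called were 4, 2, 4, 3 and 5 at P3 against P1, P5 against P3, P7 against P5, P7 against P3 and P7 against P1, 4 with E2f4 OE and 4 with sh1, 6, 6 and 3 for Tead1 sh3, sh4 and sh4 against sh3, and 2, 2 and 4 for Atf3 sh5, sh6 and sh6 against sh5. With no filter on low counts 1 was called with E2f4 OE, where Pla2g4a was just under 2-fold, and 2 at Atf3 sh6 against sh5, as with DESeq2. Leaving out 1 library at a time gave 0 to 1 members called at P5 against P3 (Ptger2, which entered the test and passed without P5 replicate 1 or 2, its lowest P5 libraries, and did not pass without any of the P3 libraries) and at P7 against P5, 1 to 2 at P7 against P3, 1 to 3 at P7 against P1, 1 to 2 with E2f4 OE and 0 to 2 at Atf3 sh6 against sh5.

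The sign of differences near 0 was not fixed. Ptgis at P3 against P1 was −0.0101 with DESeq2, −0.00968 with its size factors, −0.0168 with the replicate block and −0.0032 with the compared groups alone, and with 1 library left out it ran from −0.15 to 0.18. Leaving out 1 library gave −0.0031 to 0.13 for Ptgs1 at P3 against P1, −0.86 to 0.32 (E2f4 OE), −0.37 to 0.24 (E2f4 sh1), −0.23 to 0.46 (Tead1 sh3), −0.40 to 0.21 (Tead1 sh4) and −0.57 to 0.11 (sh4 against sh3) for Ptger2, −0.0032 to 0.035 for Ptges and −0.11 to 0.00085 for Ptgs2 at Tead1 sh4 against sh3, −0.17 to 0.12 for Ptges with Atf3 sh5 and −0.060 to 0.011 for Ptgis with Atf3 sh6.

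The Ptgs2 promoter difference was −5.84 to −2.71 with 1 sample left out, and −1.93 by fold enrichment (exact permutation p = 0.0571). The other members' promoters that passed numbered 0 by fold enrichment and 0 to 0 with 1 sample left out, where fewer samples cannot reach the threshold. Ptger4 was at 0.715 by fold enrichment, and Ptgis ran from −0.21 to 7.26 with 1 sample left out. Lower regions at the locus numbered 10 with summits merged within 150 bases, 5 with equal numbers of top-ranked peaks, and 3 to 5 with 1 sample left out. Differences of members that passed or missed an adjusted p of 0.05 narrowly also changed sides. Those of Pla2g4a at P7 against P5 (adjusted p = 0.0551) and of Ptgs1 there (0.0881) were lost with the compared groups alone, which brought in Pla2g4a at P7 against P3 (0.0285) and Ptgs1 (0.00192) and Ptger2 (0.0245) with Atf3 sh6, and those of Ptger4 with E2f4 OE (0.0912) and Tead1 sh4 (0.0959) and of Ptgis with Tead1 sh4 (0.0863) were lost with DESeq2. Where no cause is given, the cause was not tested.

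The labels give no shared source to libraries of 1 number. Over 24 pairs of passage libraries the correlation of deviations ran from −0.262 to 0.276 (median 0.0939), with 11 over 0.1. Replicate 4 was the lowest library of both Ptgs1 and Ptgis at each passage. Whether libraries of 1 number share a source is therefore not known, and the block is given as an alternative. With the replicate block 1 member was called at P7 against P1 and 2 with E2f4 OE, and the number called was the same as without it in each of the 13 comparisons. By adjusted p alone the block brought in Ptgis at P7 against P3 (0.0124), at P7 against P1 (0.0120) and with E2f4 OE (0.0116), and Ptgs1 with Atf3 sh6 (0.0452). With the block the Ptgs2 promoter difference was −4.63 (exact permutation p = 0.25, the smallest that 3 pairs allow) and 0 of the other promoters passed.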

Other observations

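A pair of RNAs transcribed from the other strand near Ptgs2 were looked at after their values were seen. They are therefore given as a description, with no test. Ptgs2os2 (chr1:150159043-150164948, minus strand) lies past Ptgs2 and does not overlap it. It had a mean of 3.31 CPM in P1 libraries and of 4.50 and 3.87 in those of P3 and P5. At P7 it stood at 9.44 CPM (log2 1.29, SE 0.20, at P7 against P5). With E2f4 OE it was lower, at 6.30 CPM against 17.3 in the control (log2 −1.44, SE 0.19). With E2f4 sh1 it was at 8.23, 9.85 and 6.46 CPM, against 4.86, 5.22 and 5.52 with NT. It was lower with Tead1 sh3 (−0.59) and sh4 (−0.91), and higher with Atf3 sh5 (0.93) and sh6 (1.10). Ptgs2os (chr1:150074873-150099874, minus strand), which begins just before the Ptgs2 start, had 2 to 21 counts per passage library. It stood at 0.264 CPM at P1 and 0.991 at P7 (log2 1.86, SE 0.47). Counting ignored strand, so reads of each RNA cannot be told from sense reads over the same bases.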
